A study of Mus with 3 samples.

Results

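The cells described here are the collagen-expressing barcodes of MC38 tumors that have no TCR clonotype, given in the series as MC38 tumor and stromal cells. A barcode belonged to them if it had 2000 or more gene UMIs (unique molecular identifiers, one for each captured transcript), no T cell receptor clonotype, 10 or more UMIs of Col3a1, Col1a2, Sparc and Cald1 together, fewer than 5 UMIs of Lyz2, and fewer than 5 UMIs of C1qa, C1qb and C1qc together. This rule was met by 511 of 4979 barcodes with 2000 or more gene UMIs, of which 193 had a TCR contig listed without a clonotype. These 511 cells held 15255968 gene UMIs, which was 32.9% of all gene UMIs of the library. They had a median of 27465 gene UMIs (2520 to 103875) and 5083 genes, against a median of 4718 UMIs in 3467 TCR-bearing cells and 9990 UMIs in 67 macrophages with 10 or more C1q UMIs.

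The single-cell experiment addressed tumors that grew in mice whose T cells lack RARα or carry more of it. MC38 cells, a colon adenocarcinoma line of C57BL/6 mice, were grown under the skin of WT mice (C57BL/6, or dLck-Cre without a floxed allele), of RARα-KO mice, in which a Cre driven by the distal Lck promoter removes a part of Rara from T cells, and of RARα-TG mice, in which the CD2 promoter drives Rara. On day 16, the tumor suspensions were stained with 1 antibody hashtag for each genotype, together with the antibodies for sorting. Sorted CD45.2+ CD3+ T cells were then mixed with unsorted cells of the whole tumor suspension. The genotypes were combined and sequenced as 1 pooled 5′ single-cell library (10x Genomics) with amplified TCR transcripts. Most experiments with these strains used mice of 6 to 10 weeks, males for the larger part. The age and sex of the mice of this experiment, how many there were of each genotype and the WT strain used were not given in the sources used here, and the tissue and cell type fields of the labels name spleen and naive CD8 T cells, which the tumor protocol of the same labels contradicts. The tumor line carries the same Rara alleles in all 3 hosts, so a host comparison of these cells compares tumors that grew in different hosts. Macrophages of the RARα-KO host also differed from those of WT in Rpl29 (values below). Other differences between the hosts therefore cannot be told apart from that of Rara in T cells. Each host is 1 sample, so no difference between hosts below has a replicate check, and no p-value was computed.

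A host was assigned to a cell if its highest hashtag had 10 or more UMIs and 3 times the next one. This gave 172 cells of the WT host, 128 of the RARα-KO host and 16 of the RARα-TG host, and left 195 without a host. Their gene UMIs summed to 5795842 for WT, 4314111 for RARα-KO, 323912 for RARα-TG and 4822103 for cells without a host, so values for RARα-TG rest on the fewest counts. Levels are CPM, the UMIs of a gene scaled to 1000000 gene UMIs of the summed cells, and they are not scaled by gene length. Intervals of genes, sums and shares are exact 95% intervals (Poisson for sums, binomial for ratios, Clopper-Pearson for shares). They cover counting error only, not the variation between mice or tumors. Those of sums and ratios treat each UMI as independent, so they leave out the variation between cells as well. Bounds given after the median ratio of a list are the medians of its genes' lower and upper bounds, and are no 95% interval of that median.

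MC38 is a poorly differentiated line that is recognized by CD8 T cells, which read peptides on MHC class I molecules. Interferon-γ, released mainly by T and NK cells, acts on tumor cells to raise guanylate binding proteins (GBPs), immunity-related GTPases, the immunoproteasome, MHC class I and the checkpoint ligand PD-L1 (Cd274). Type I interferon raises genes such as Ifit1, Isg15 and Rsad2.

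The profile was mesenchymal, with high levels of matrix genes and low levels of all but 1 of 21 listed epithelial and colon genes, although the keratin Krt14 was found in most cells. Of the 6 markers given for these cells, Sparc was found in 99.8% of the 511 cells (2002 CPM), Cald1 in 98.8% (560 CPM), Sox9 in 94.7% (623 CPM), Has1 in 93.2% (674 CPM), Col3a1 in 92.2% (1400 CPM) and Ccn1 in 91.4% (1066 CPM). Each of these 6 genes had a UMI in under 1% of TCR-bearing cells, where Sparc was the highest at 0.894% and Sox9 the lowest at 0.173%, at a median depth of 4718 UMIs against 27465 UMIs. Sparc and Col3a1 code for matrix proteins, Cald1 for an actin-binding protein, Ccn1 for a matrix-associated signal protein under YAP control, Has1 for a hyaluronan synthase, and Sox9 for a transcription factor of progenitor cells. Since the rule selected on 3 of them, and the others were chosen on the same cells, these shares are a description and no test.

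Among genes at 100 CPM or more, those with the largest ratio of the level in these cells to that in TCR-bearing cells were Pcolce, which enhances procollagen processing (738 CPM in 98.0% of cells, against 0.197 CPM), the metalloproteinase inhibitor Timp3 (272 CPM), the small heat shock protein Hspb8 (266 CPM), the matrix protein Fbln2 (343 CPM), the metalloproteinase Mmp2 (918 CPM in 98.4%), the basal keratin Krt14 (249 CPM in 87.3%), the serine protease Htra1 (404 CPM) and the chemokine scavenger Ackr3 (309 CPM). The next ones included Cav1, Col6a1, Col6a2, Cd34 (676 CPM in 98.0%), Bgn (1805 CPM in 99.6%), Tm4sf1, Nppb (146 CPM in 54.0%) and Slurp1 (291 CPM in 63.8%). The matrix list of 36 genes summed to 9695 CPM, against 264.9 CPM in TCR-bearing cells and 2211 CPM in macrophages. The mesenchymal list of 20 genes summed to 11812 CPM, of which Vim, the intermediate filament of mesenchymal cells, held 5839 CPM. The transcription factors Twist1 (150 CPM in 88.1% of cells) and Zeb2 (80.2 CPM in 77.3%) were among its detected members, while the smooth muscle gene Tagln was found in 0.587% of cells.

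**Figure D1:**
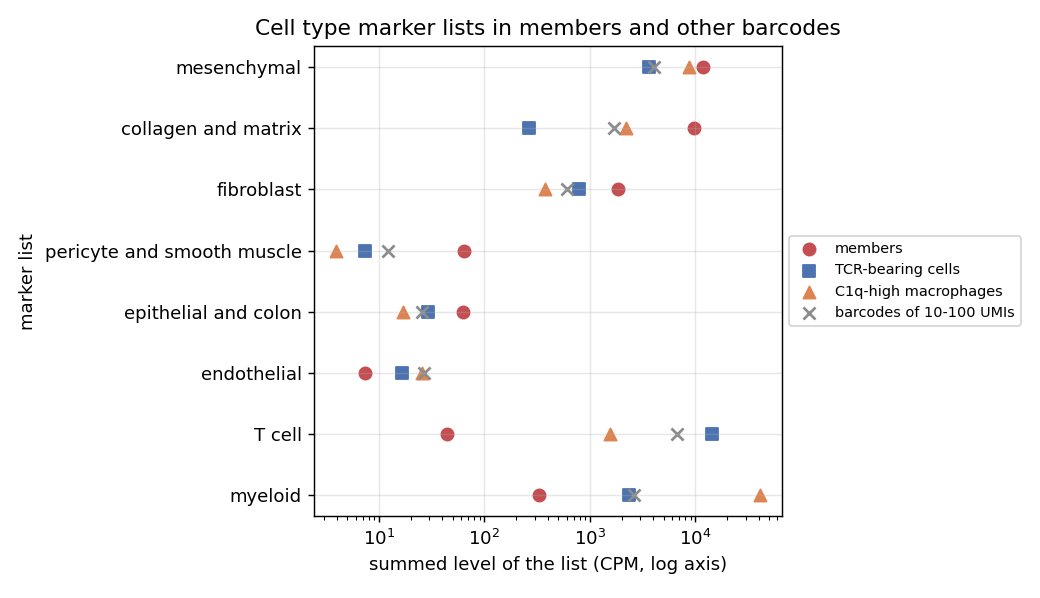
Summed level (CPM, log axis) of 8 marker lists in the 511 cells of the rule (members), in TCR-bearing cells, in C1q-high macrophages and in barcodes of 10 to 100 UMIs, which hold mostly free RNA. The members were the highest group for the mesenchymal (11812 CPM) and matrix lists (9695 CPM), and lay under all others for the T cell (44.6 CPM), myeloid (328 CPM) and endothelial lists (7.34 CPM).

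The label was checked against markers of the cell types that a tumor suspension could hold. Of 21 epithelial and colon genes, 10 had no UMI, 20 were under 1 CPM, and the tight junction gene Tjp1 alone carried the list (60.0 of 62.3 CPM). Krt18 was among the genes at 0, for which 0 of 15255968 UMIs were found. Of the Wnt targets of colon stem cells, Axin2 and Lgr5 had 0.131 CPM each, although Sox9 was high. The tumor suppressor Cdkn2a had no UMI, while Trp53 was at 168 CPM in 89.6% of cells. The T cell list summed to 44.6 CPM (14224 CPM in TCR-bearing cells), the endothelial list to 7.34 CPM, and the pericyte list to 64.4 CPM, of which the proteoglycan Cspg4 held 49.4 CPM in 62.6% of cells. The myeloid list summed to 328 CPM (41284 CPM in macrophages), and the MHC class II genes Cd74 (248 CPM) and H2-Aa (69.2 CPM) held most of it. Of the fibroblast list (1861 CPM), the actin regulator Gsn (1194 CPM in 94.1% of cells) and the proteoglycan Dcn (577 CPM in 71.4%) were found in most cells, whereas Lum and Mfap5 had UMIs in 1 cell each.

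That cell with Lum and Mfap5 was 1 of 128 cells of the RARα-KO host, and it had 44 UMIs of Mfap5, 9 of Lum, 72 of Pi16, 131 of Clec3b, 56 of Serping1 and no Sox9. Another single barcode without a host held all 68 UMIs of the pericyte gene Rgs5. A barcode of the WT host held 80 UMIs of Tnf, 188 of Ccl4, 61 of Il1b and 256 of Cxcl2, and a barcode of the RARα-KO host held 17 UMIs of Cd3e, 52 of Gzmb, 49 of Nkg7 and 241 of Ccl5. In all, 15 of the 511 cells had 3 or more UMIs of T cell, myeloid or stroma genes (3 of WT, 3 of RARα-KO, 1 of RARα-TG and 8 without a host), where Dcn, Cd74 and H2-Aa were not counted. The other cells had fewer than 3 such UMIs. They carry the label through the rule that selected them, and no single cell was called tumor or stromal. As a set, the cells of the RARα-KO host differed from its TCR-bearing cells and macrophages in Rpl29. The 511 cells differed from TCR-bearing cells in Y-linked transcripts, as given below.

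Some transcripts differed between the hosts' own cells and the collagen-expressing cells. Rpl29 (chromosome 9, 106428889 to 106431568, GRCm38), a ribosomal protein gene, was low in the RARα-KO host's own cells, with 339 CPM in TCR-bearing cells and 325 CPM in macrophages, against 2974 CPM and 1781 CPM in the WT host. The collagen-expressing cells showed no such drop and had 1857 CPM for WT (1822 to 1892), 1851 CPM for RARα-KO (1811 to 1892) and 1575 CPM for RARα-TG (1441 to 1717). Rpl29 was under 500 CPM in 2 of 128 cells of the RARα-KO host, against 1120 of 1449 of its TCR-bearing cells (77.3%) and 24 of 29 of its macrophages. One of those 2 cells was the Mfap5 and Pi16 cell (156 CPM). The transcript Gm42031 had 20.5 CPM in the cells of the WT host and 17.4 CPM in those of the RARα-KO host, whereas TCR-bearing cells had 0.962 CPM and 158 CPM. Y-linked transcripts were found in 5 of the 511 cells (0.978%) and in 42.5% of TCR-bearing cells, and summed to 0.918 CPM and 109 CPM. In cells of the WT and RARα-TG hosts, Ddx3y, Eif2s3y, Kdm5d and Uty had 0 UMIs each, which allows up to 0.636 CPM for WT and 11.4 CPM for RARα-TG. TCR-bearing cells of these hosts had 28.7 and 35.8 CPM of Ddx3y and 44.4 and 44.3 CPM of Eif2s3y. In the RARα-KO host, 4 Y-linked UMIs lay in the Mfap5 cell and 4 in the barcode with Cd3e.

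Near the limit of the rule, 34 cells had 10 to 19 UMIs of the 4 rule genes, and 28 barcodes without a clonotype had 5 to 9 and stayed out. The 34 cells inside had a median of 8250 gene UMIs, and Has1 was found in 18, Sox9 in 20, Mmp2 in 29 and the leukocyte gene Ptprc in 0 of them. The 28 barcodes outside had a median of 6076 gene UMIs, and Has1 was found in 12, Sox9 in 15, Mmp2 in 18 and Ptprc in 2. Of 556 barcodes that reached 10 UMIs of the 4 genes, 41 were left out for a clonotype and 4 for Lyz2 or C1q. The median mitochondrial share was 0.499%, and no cell was over 10%.

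The 511 cells were split by Leiden clustering into 5 groups, which are numbered by size, and the genes that define a group are given as a description. Group 1 (147 cells) was led by Gm26917 (250.2 against 113 CPM) and had higher levels of the hypoxia genes Ero1l (209 CPM, against 107 CPM in the other cells), Pgk1 (1591 against 1002 CPM) and Bnip3 (576 against 377 CPM), and the lowest interferon list level of the 5 groups (1658 CPM). Group 2 (122 cells) was led by matrix and fibroblast-associated genes, with Col3a1 at 5570 CPM against 485 CPM, Dcn at 2263 CPM against 207 CPM, Gsn at 4373 CPM against 497 CPM, and Islr in 68.0% against 12.6% of cells. Group 3 (112 cells) was in cycle, as Plk1, a mitotic kinase, was found in 67.0% against 3.26% of cells, Ccnb1 in 74.1% against 4.51% and Cenpf in 91.1% against 9.02%. Group 4 (72 cells) was led by the phosphatase Phospho1, the small heat shock protein Cryab (991 against 273 CPM) and Ankrd37, and had the lowest cholesterol synthesis level (916 CPM). Group 5 (58 cells) was led by interferon-induced genes, among them Cxcl10 (2097 against 492 CPM), Gbp4, Ubd, Cd74 (585 against 196 CPM) and Isg15 (832 against 298 CPM).

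**Figure D2:**
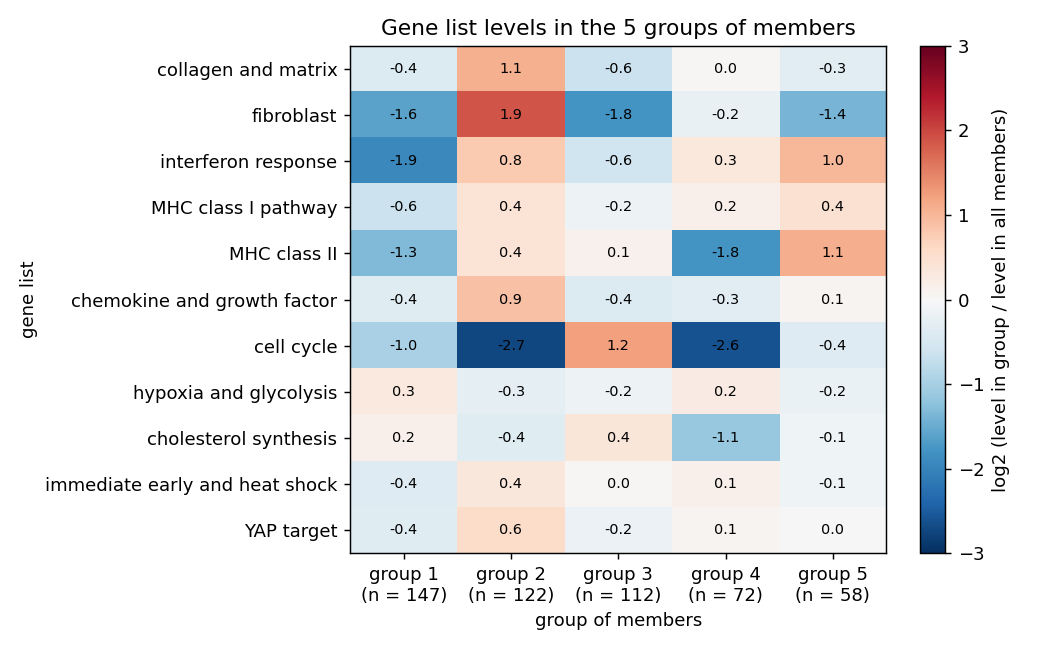
Level of 11 gene lists in each of the 5 groups of cells, as the log2 of the summed CPM of the group over that of all 511 cells (red, higher; blue, lower). Group 2 stands out by the matrix and fibroblast lists, group 3 by the cell cycle list, groups 2 and 5 by the interferon list, and group 1 lies lowest in the interferon list.

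The matrix list and the cell cycle list ran against each other among cells. Over the 511 cells the Spearman correlation of their summed CPM was -0.51, and the matrix list ranged from 1147 to 92153 CPM around a median of 8631 CPM. The interferon list correlated with the MHC class I list at 0.82 over all cells, at 0.76 in the 172 WT and at 0.61 in the 128 RARα-KO cells. It ranged from 0 to 63317 CPM around a median of 3637 CPM, and its correlation with the gene UMIs of a cell was 0.07. These cells share 1 library, and lists of the same cell share its total, so the correlations are a description.

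The interferon response was higher in cells of the RARα-KO host than in those of the WT host, and it was low in the 16 cells of the RARα-TG host. The 27 listed genes found in the matrix summed to 6098 CPM for WT (6035 to 6162), 10544 CPM for RARα-KO (10448 to 10642), 667 CPM for RARα-TG (581 to 762) and 3117 CPM in cells without a host. Per cell, the list had a median of 4237 CPM for WT (208 to 49195), 8462 CPM for RARα-KO (203 to 63317) and 406 CPM for RARα-TG (75.9 to 2471). The ranges of WT and RARα-KO overlapped almost wholly, although 106 of 128 RARα-KO cells (82.8%) lay above the WT median. None of the 16 RARα-TG cells did, and 15 of them lay under the lower quartile of WT.

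**Figure D3:**
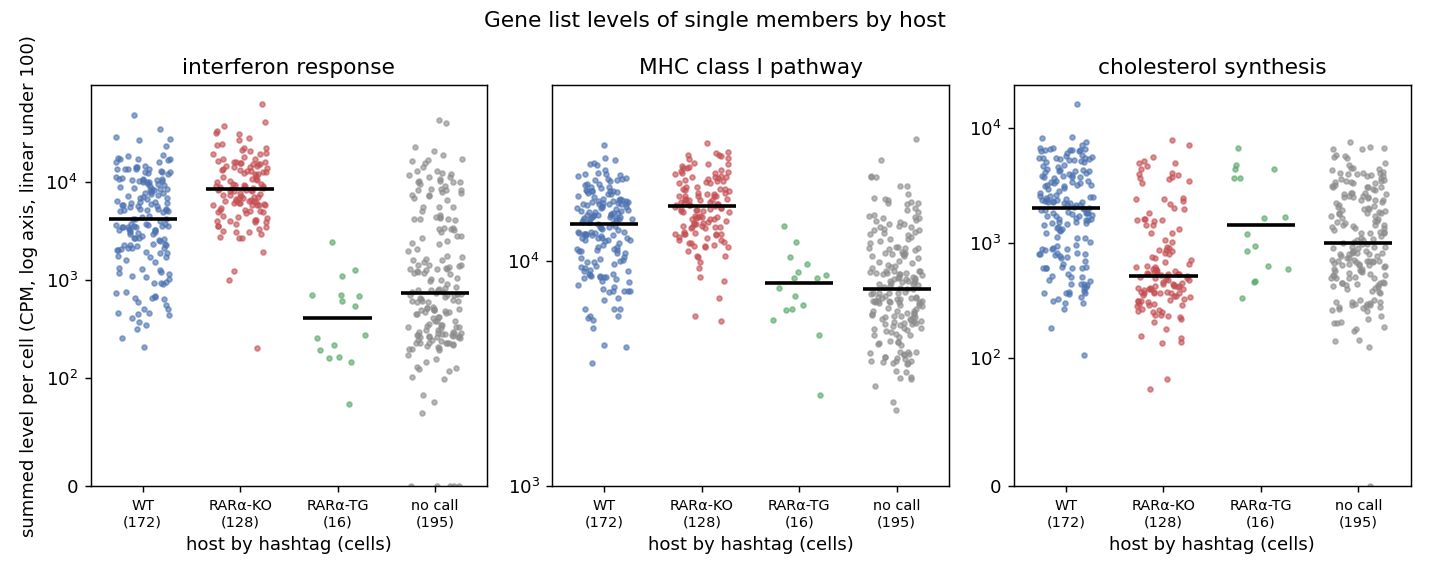
Summed level of the interferon response, MHC class I pathway and cholesterol synthesis lists (CPM; log axis that is linear under 100) in single cells by host, 1 point for each cell, with the median of each host as a bar. For the interferon list, the medians are 4237 CPM in WT, 8462 CPM for RARα-KO, 406 CPM for RARα-TG and 737 CPM without a host, and the ranges of WT and RARα-KO overlap.

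The comparison of RARα-KO with WT kept 9603 genes, those with 20 or more expected UMIs in the smaller sum, with a median log2 ratio of -0.01. Of these, 78 genes (0.812%) were 2-fold or more higher and 73 (0.760%) 2-fold or more lower in RARα-KO. Of the interferon list, 26 genes were kept, and their median log2 ratio was 0.76 (medians of the genes' lower and upper bounds, 0.61 and 0.89). Of these genes, 25 were above 0, 7 were past 2-fold higher and none past 2-fold lower. Cxcl9, a chemokine for CXCR3+ T cells, was the exception, with 72.6 CPM in WT and 36.4 CPM for RARα-KO (log2 interval -1.27 to -0.73).

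The 7 genes past 2-fold were Rsad2, Ifit1, Ifit3, Isg15, Cd274, Igtp and Irf7, and several of them are known targets of type I interferon. Rsad2 (viperin, an antiviral enzyme; chromosome 12, 26442743 to 26456452) had 77 UMIs in 17 of 172 WT cells, 381 UMIs in 34 of 128 RARα-KO cells and 0 UMIs in RARα-TG. This was 13.3 CPM (10.5 to 16.6) against 88.3 CPM (79.7 to 97.6), a log2 ratio of 2.73 (2.38 to 3.11), of which a single RARα-KO cell held 106 UMIs. Ifit1 (41.6 against 140 CPM) and Ifit3 (65.7 against 221 CPM), which bind foreign RNA and adapt antiviral signaling, had a log2 ratio of 1.75 each. Isg15, a ubiquitin-like protein, had 273 CPM for WT (260 to 287), 672 CPM for RARα-KO (648 to 697), 55.6 CPM for RARα-TG (32.9 to 87.8) and 238 CPM without a host, and its log2 ratio for RARα-KO was 1.30 (1.21 to 1.39). Irf7, which amplifies type I interferon, stood at 1.04 (0.86 to 1.23).

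Most of the GBPs and GTPases, targets of interferon-γ, lay below 2-fold and were found in most cells of both hosts. Gbp2, a guanylate binding protein (chromosome 3, 142620663 to 142638008), had 3812 UMIs in 140 of 172 WT cells, 4841 UMIs in 124 of 128 RARα-KO cells, 1 UMI in 16 RARα-TG cells and 1337 UMIs in 75 of 195 cells without a host. This gave 658 CPM in WT, 1122 CPM for RARα-KO, 3.09 CPM for RARα-TG (0.0782 to 17.2) and 277 CPM without a host, and a log2 ratio of 0.77 (0.71 to 0.83) for RARα-KO. When each cell was thinned to 2000 UMIs, Gbp2 was found in 86 of 172 WT cells (42.3% to 57.7%), in 93 of 128 RARα-KO cells (72.7%, 64.1% to 80.2%) and in 0 of 16 RARα-TG cells, which allows a share of up to 20.6%. Igtp, an immunity-related GTPase, stood at 1.05 (0.97 to 1.14), Iigp1, of the same family, at 0.65, the antiviral membrane protein Bst2 at 0.96, and the chemokine Cxcl10, which attracts CXCR3+ T cells, at 0.57 (0.51 to 0.63). The transcription factors Irf1 (0.22, 0.14 to 0.31) and Irf9 (0.32) differed less. Cd274, which codes for PD-L1, had 53.1 CPM in WT, 115 CPM for RARα-KO and 3.09 CPM for RARα-TG, and its log2 ratio for RARα-KO was 1.12 (0.91 to 1.33).

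The MHC class I list summed to 13676 CPM in WT, 17524 CPM for RARα-KO, 7369 CPM for RARα-TG and 8406 CPM in cells without a host. In RARα-KO, 20 genes were kept, 19 were above 0, none was past 2-fold, and the median log2 ratio was 0.48 (0.37 to 0.59). The heavy chain H2-K1 (chromosome 17, 33996012 to 34000619) had 2759 CPM for WT (2716 to 2802), 3372 CPM for RARα-KO (3317 to 3427), 1355 CPM for RARα-TG (1231 to 1488) and 1400 CPM without a host. Per cell it ranged from 340 to 8413 CPM in WT, from 510 to 7726 CPM for RARα-KO and from 78.0 to 3733 CPM for RARα-TG, so the hosts overlapped. Its log2 ratio for RARα-KO was 0.29, against 0.45 for the light chain B2m, 0.55 for the immunoproteasome subunit Psmb8, 0.54 for Psmb9 and 0.60 for the peptide transporter Tap1. Of MHC class II, a list chosen after its values were seen, 6 genes were kept with a median of 0.63, and this direction turned when cells with 3 or more UMIs of stroma genes including Dcn were left out (-1.18).

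**Figure D4:**
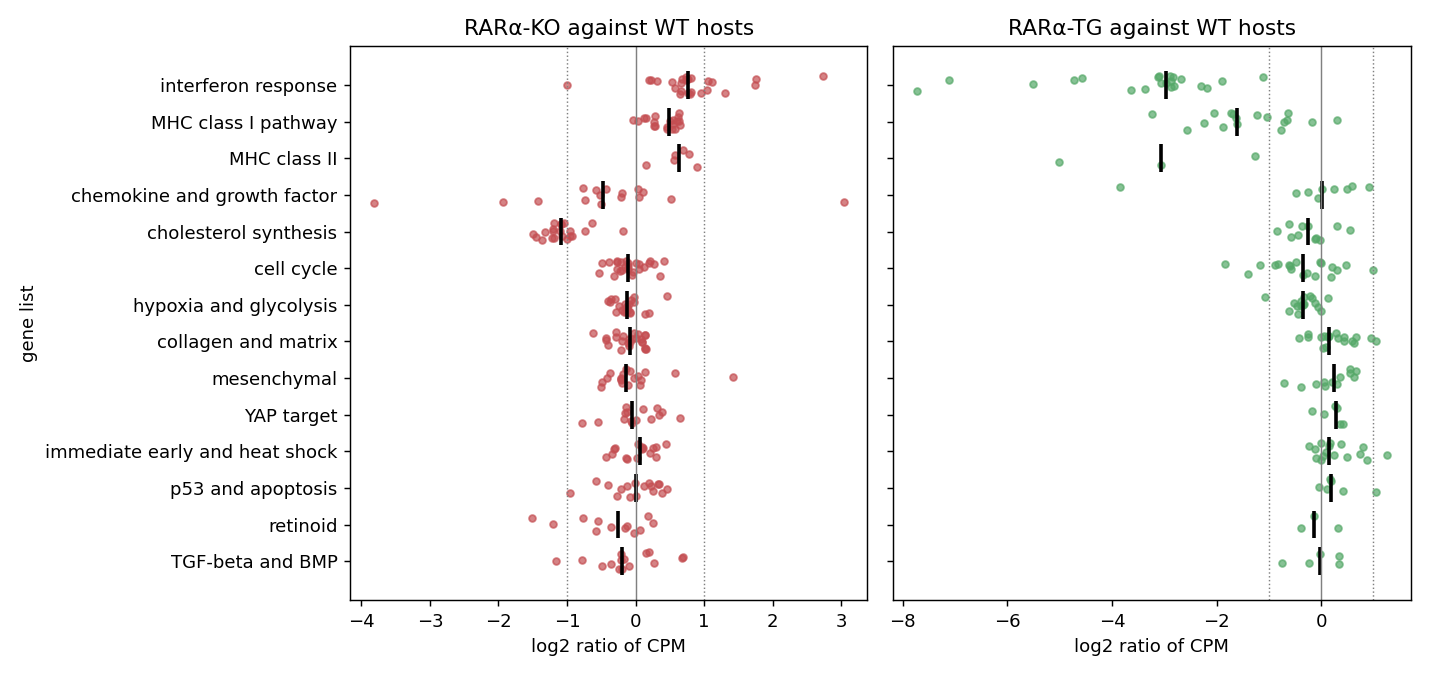
Log2 ratio of CPM of RARα-KO to WT cells (left) and of RARα-TG to WT cells (right) for each kept gene of the lists on the vertical axis, 1 point for each gene, with the list median as a bar (3 or more genes) and 2-fold as dotted lines. Both sides share the WT cells, and a gene with no UMI in 1 host is set to 3 UMIs there. The interferon list lies at a median of 0.76 on the left and -2.97 on the right, and the cholesterol list at -1.09 and -0.25.

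The list with the lowest median in RARα-KO was cholesterol synthesis. This list of 22 genes under SREBP2 control was added after the ratios were seen, so its direction is a description. All 21 kept genes were below 0 in RARα-KO, 15 of them past 2-fold, and the median log2 ratio was -1.09 (-1.29 to -0.77). The list summed to 2775 CPM for WT (2733 to 2818), 1222 CPM for RARα-KO (1190 to 1256) and 2244 CPM for RARα-TG (2084 to 2414), and per cell its median was 1998 CPM (107 to 16023) in WT, 520 CPM (76.0 to 7835) in RARα-KO and 1422 CPM (336 to 6633) in RARα-TG. Of the RARα-KO cells, 106 of 128 lay below the WT median, and the ranges overlapped. The lowest was Idi1, an isomerase of the isoprenoid steps (chromosome 13, 8885606 to 8892396), with 1067 UMIs in 139 of 172 WT cells and 281 UMIs in 71 of 128 RARα-KO cells. This was 184 against 65.1 CPM, a log2 ratio of -1.50 (-1.69 to -1.31). Cyp51 (-1.45) and Sqle (-1.37), which act at the sterol steps, as well as Hmgcs1 (-1.32) and Fdps (-1.20), which act earlier, and the SREBP regulator Insig1 (-1.10) had ratios of like size. In RARα-TG the list had a median of -0.25 over 11 kept genes, with none past 2-fold, and this moved to -0.83 with a stricter hashtag call (6 cells) and to -1.53 without cells with 3 or more UMIs of stroma genes including Dcn (5 cells). Cells without a host summed to 1756 CPM, and all 21 kept genes were below WT there, with a median log2 ratio of -0.66.

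The difference between WT and RARα-KO was also present inside most of the 5 groups of cells. The median of the interferon list was 1727 CPM in WT and 4256 CPM for RARα-KO in group 1, 6853 and 13853 CPM in group 2, 2627 and 6165 CPM in group 3, and 4905 and 9160 CPM in group 4. In group 5, which interferon genes define, it was 10725 CPM in WT and 9648 CPM for RARα-KO. The cholesterol list had a lower median in RARα-KO in each of the 5 groups, from 2127 against 1375 CPM in group 1 to 3496 against 961 CPM in group 3. Each of these medians rests on 18 to 48 cells of a host.

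Several secreted factors were lower in RARα-KO than in WT. In the chemokine and growth factor list, 16 genes were kept, 11 were below 0, 3 were past 2-fold lower, 1 past 2-fold higher, and the median was -0.47. The monocyte attractant Ccl2 had 1522 CPM for WT (1490 to 1554), 894 CPM for RARα-KO (866 to 923), 1275 CPM for RARα-TG (1155 to 1404) and 1553 CPM without a host, a log2 ratio of -0.77 in RARα-KO. Ccl7 (-0.57) and the neutrophil attractant Cxcl1 (-0.52) had the same sign. Il11, a cytokine of the IL-6 family, had 323 UMIs in 62 of 172 WT cells and 63 UMIs in 24 of 128 RARα-KO cells, a log2 ratio of -1.93 (-2.35 to -1.54), while Inhba, which forms activin A, stood at -1.16 (-1.40 to -0.93). The size of the Cxcl2 ratio (-1.43) rested in large part on 1 barcode, since 256 of its 516 UMIs in WT lay in the WT barcode with Tnf and Il1b named above. Csf2 had 57 UMIs in 11 WT cells and none in RARα-KO, a 14.1-fold lower ratio with 3 UMIs set for the count of 0, which leaves out the variation between cells.

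Most of the genes at the ends of the RARα-KO comparison rested on single barcodes. Of the 8 highest ratios, Nkg7 (49 of 53 UMIs), Gzmb (52 of 57), Cd52 (57 of 63) and Ccl5 (241 of 275) lay mostly in the RARα-KO barcode with Cd3e, and Serping1 (56 of 56), Igfbp5 (47 of 47) and Pi16 (72 of 80) in the one with Mfap5. Prl2c2, a prolactin family gene, was the other one, with 327 UMIs in 14 of 128 cells against 49 UMIs in 14 of 172 WT cells, of which 158 lay in 1 cell. Of the 8 lowest, Tnf (80 of 81), Ccl4 (188 of 196), Ccl3 (90 of 91) and Il1b (61 of 64) lay mostly in 1 WT barcode, Saa3 (80 of 96) in 1 WT cell as well, and Hist2h2bb with 111 of 197 UMIs. Without the barcode with Cd3e, the log2 ratio of Gzmb went from 3.26 to -0.24.

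The markers of these cells and the other lists differed less. Has1 (chromosome 17, 17833691 to 17855589) had 722 CPM for WT (700 to 744), 460 CPM for RARα-KO (440 to 481), 843 CPM for RARα-TG (746 to 949) and 796 CPM without a host, a log2 ratio of -0.65 (-0.73 to -0.57). Per cell it had a median of 618 CPM for WT (0 to 2768) and 316 CPM for RARα-KO (0 to 4013). Sox9 (-0.33), Col3a1 (-0.28), Cald1 (-0.18), Sparc (-0.12) and Ccn1 (-0.06) differed less. The hyaluronan list had 7 kept genes, all below 0, with a median of -0.32. The medians were -0.14 for the mesenchymal, -0.09 for the matrix, -0.11 for the cell cycle, -0.13 for the hypoxia, -0.06 for the YAP target, -0.19 for the TGF-beta and BMP, 0.00 for the p53, 0.06 for the immediate early and heat shock, 0.02 for the Wnt and 0.01 for the checkpoint ligand list. The fibroblast list stood at 0.42 with 3 of 7 kept genes past 2-fold, which include Pi16 of the single Mfap5 cell. Among single genes, Snai2, a mesenchymal transcription factor, stood at 0.58 (0.22 to 0.94), Col6a2 at -0.43, Krt14 at -0.39 and Slurp1 at 0.77 (258 against 441 CPM).

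Rara itself (chromosome 11, 98927800 to 98974942) was not altered in the tumor line by design and was low here. It had 261 UMIs in 117 of 172 WT cells (39.7 to 50.8 CPM), 151 UMIs in 77 of 128 RARα-KO cells (29.6 to 41.1 CPM) and 14 UMIs in 9 of 16 RARα-TG cells (23.6 to 72.5 CPM). Over all 511 cells it had 44.4 CPM, against 108 CPM in TCR-bearing cells of all hosts. Those include T cells of the RARα-TG host, which carry the CD2-driven Rara, so 108 CPM is not a WT level. The log2 ratio of RARα-KO to WT was -0.36 (-0.66 to -0.07), and it turned to 0.58 when each cell was thinned to 2000 UMIs. The receptor Rarg had 77.6 CPM and was found in 81.2% of the 511 cells, with 78.0 CPM in WT and 71.4 CPM for RARα-KO. In the retinoid list, 12 genes were kept with a median of -0.26. Past 2-fold lower were the retinol importer Stra6 (92 UMIs in 46 of 172 against 24 UMIs in 17 of 128 cells, a log2 ratio of -1.51) and the retinoic acid binding protein Crabp1 (-1.20), while its relative Crabp2 had 278 and 315 CPM.

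The comparison of RARα-TG with WT rests on 16 cells and shares its WT cells with the one above. It kept 2468 genes, with a median log2 ratio of -0.07, of which 10 (0.405%) were 2-fold or more higher and 102 (4.13%) 2-fold or more lower. The filter used the pooled level, which is mostly that of WT (5795842 against 323912 UMIs). Genes near 0 in RARα-TG were thus kept through WT, while genes low in WT and higher in RARα-TG were mostly dropped. The 2 counts are therefore not comparable with each other. All 21 kept genes of the interferon list were past 2-fold lower, with a median of -2.97, and 3 of them had no UMI. Of the MHC class I list, 11 of 17 kept genes were past 2-fold lower, 16 were below 0, and the median was -1.60. The 8 lowest genes all belonged to interferon-induced families or MHC class II. Besides Gbp2 (-7.73, interval -13.04 to -5.26, from 1 UMI against 3812), these were Iigp1 (1 UMI against 2485), Tgtp1 (1 against 1163), Tgtp2 (1 against 816), Gbp3 (2 against 947), Apol9a (1 against 435), Gbp7 (2 against 855) and Cd74 (0 against 1738). With 3 UMIs taken as the limit of a count of 0, Cd74 was at least 32.4-fold lower. Reads of Tgtp1 and Tgtp2 are near-identical, so how counts are divided between both is uncertain.

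Within both lists, the distance from WT differed from gene to gene in RARα-TG. The immunoproteasome subunits Psmb9 (-3.24), Psmb10 (-2.56) and Psmb8 (-2.23) lay further below WT than H2-K1 (-1.03), H2-D1 (-0.76) and B2m (-0.66). The chaperone Canx was the 1 gene of the list above 0 (0.31, 0.06 to 0.55). Slurp1 had 9 UMIs in 6 of 16 cells, 27.8 CPM against 258 CPM for WT (-3.21). Thinned to 2000 UMIs, Psmb8 was found in 2 of 16 RARα-TG cells (12.5%, 1.55% to 38.3%) and in 120 WT cells (69.8%, 62.3% to 76.5%).

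The 8 highest genes in RARα-TG held 2 transcripts of ribosomal RNA loci, Gm42418 (8021 against 22129 CPM) and AY036118 (1332 against 3242 CPM), the histone gene Hist1h2bc (1.38), the heat shock genes Hspa1b (833 against 1994 CPM, a log2 ratio of 1.26) and Dnaja1 (1.03), the matrix genes Prelp (1.15) and Col1a1 (159 against 330 CPM, 1.06), and the stress cytokine Gdf15 (1.04). Of the UMIs of Gm42418 in RARα-TG, 3127 of 7168 lay in 1 cell. The matrix list had 15 of 19 kept genes above 0 with a median of 0.16. Of the matrix, mesenchymal and fibroblast lists, Col6a2 (0.95), Col6a1 (0.66), Sparc (0.63), S100a4 (0.68) and Dcn (0.79) were higher than in WT. The mesenchymal list had a median of 0.26, the YAP target list 0.28, the immediate early and heat shock list 0.16, and the cell cycle list -0.34, with Mcm5, a subunit of the replicative helicase, at -1.83 (8 UMIs in 5 cells) and the mitotic gene Cenpf at 0.99 (69 UMIs in 5 cells). The hypoxia list had a median of -0.34, with Gapdh at -0.46, and moved to -0.81 when hosts were called against hashtag background. Ccl7 stood at 0.92 and Ptgs2, which makes prostaglandins, at -1.11 (17 UMIs). Without cells that had 3 or more UMIs of stroma genes including Dcn, 5 RARα-TG cells were left, and Prelp, Col1a1, Gdf15, Col6a1, Col6a2, Sparc and Cenpf lay below WT, while the hypoxia list turned to 0.23. With cells weighted equally, the immediate early and heat shock list turned to -0.014.

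The hashtags decided which cells entered these host comparisons. TotalSeq hashtags bind CD45 and MHC class I molecules, and Ptprc, which codes for CD45, had 2.29 CPM in these cells against 624 CPM in TCR-bearing cells. Of the 511 cells, 38.2% (33.9% to 42.5%) had no host, against 5.11% of TCR-bearing cells and 16.4% of macrophages (8.49% to 27.5%). Cells without a host had an interferon list median of 737 CPM, an MHC class I list median of 7469 CPM and H2-K1 at 1400 CPM, against 4237, 14552 and 2759 CPM in the WT host. Their median hashtag UMIs were 256 for WT, 212 for RARα-KO and 194 for RARα-TG, while cells of the WT host had 1183 UMIs of their own hashtag, cells of the RARα-KO host 2443 and cells of the RARα-TG host 848. Within a host, the Spearman correlation of the highest hashtag with H2-K1 over cells was 0.19 in WT and 0.11 in RARα-KO. With H2-D1 it was 0.16 and 0.02, and with the interferon list 0.27 and 0.08.

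**Figure D5:**
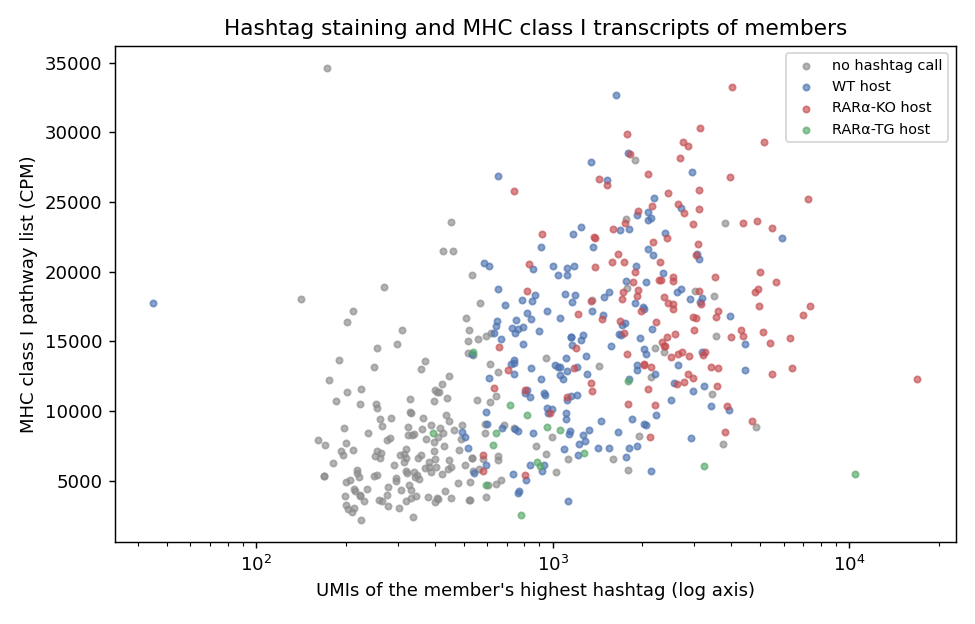
UMIs of the highest hashtag (log axis) against the summed MHC class I list (CPM) for each of the 511 cells, colored by host. Cells without a host lie mostly to the lower left, with a median MHC class I level of 7469 CPM against 14552 CPM in the WT and 17407 CPM in the RARα-KO host, and the 16 RARα-TG cells lie low as well.

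A second way of calling, chosen after seeing the data, set a limit for each hashtag at 3 times its median in cells of other hosts (111 UMIs for WT, 560 for RARα-KO and 486 for RARα-TG). It gave 293 WT, 125 RARα-KO and 23 RARα-TG cells and moved 123 cells without a host to WT. Those 123 cells had an interferon list median of 1026 CPM and an H2-K1 median of 1377 CPM, against 4237 CPM and 2838 CPM in the 172 WT cells. With these calls the interferon list median for RARα-KO against WT was 1.07 and that of the MHC class I list 0.71. A stricter call (20 UMIs and 5 times the next) left 110 WT, 122 RARα-KO and 6 RARα-TG cells and gave 0.58 and 0.36. The interferon list was thus above 0 in RARα-KO under all 3 calls, while its size moved with the call, and the part of hashtag binding in the host differences was not tested. With the calls against background, the 23 RARα-TG cells had an interferon list median of 259 CPM and the 70 cells still without a host 616 CPM. The MHC class I list of RARα-TG cells (7369 CPM) also lay close to that of cells without a host (8406 CPM).

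The shares of hashtagged cells without a TCR clonotype that met the rule were 44.8% in the WT host (172 of 384), 21.7% in the RARα-KO host (128 of 591) and 10.2% in the RARα-TG host (16 of 157). These shares depend on the sort, which mixed T cells with whole suspension, and on the hashtag binding described above, so no direction is drawn from them.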

How the data were processed

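The authors aligned the reads to mm10 (GRCm38) with Cell Ranger (6.1.0 in their processing notes; the matrix header names version 4) and deposited UMI counts, not normalized, for 32285 genes and 3 hashtags in 730308 barcodes, with a table of TCR contigs. Each host is 1 sample of 1 pooled library. No doublet caller was run; cells with like hashtags entered no host comparison but stayed in the profile and the groups, and 41 barcodes with a clonotype were left out. UMIs were summed by host (numpy 2.4.6, scipy 1.17.1 and pandas 2.3.3 under Python 3.11.15), and cells were clustered with scanpy 1.11.5 (2000 variable genes, 20 components, resolution 0.5). A count of 0 was set to 3 UMIs in a ratio. The calculations were tested on simulated data. Gene positions are from the RefSeq table of GRCm38.p6, matched by symbol (478 of 482 genes). Genes named are markers and rule genes, the 8 highest and 8 lowest ratios, members and extremes of 23 lists, the 25 genes highest against TCR-bearing cells and the leading genes of each group. The members and lists were chosen with earlier results of these data known, and 2 more lists, cholesterol synthesis and MHC class II, after the ratios were seen. Other hashtag calls, filters, cell limits, depths and weights were tried as alternatives. Some results are not reported here.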

Additional observations from a re-analysis of the deposited data

Results flagged for a closer look

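In cells without a host, the WT hashtag was not at background: its median was 256 UMIs, against 37 UMIs in cells of the RARα-KO host and 39.5 UMIs in those of the RARα-TG host. The hashtags of RARα-KO (212 UMIs) and RARα-TG (194 UMIs) in the same cells were close to their levels in WT cells (187 and 162 UMIs). These hashtag counts lie outside of the gene comparisons, and the cells that carry them entered only the profile.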

How the results depend on the processing

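With 12 alternatives fixed at the start and 3 chosen after seeing the data, 466 values of the main results stayed within their band, 52 moved and 3 turned. The interferon list of RARα-KO lay between 0.58 and 1.15 and that of RARα-TG between -3.82 and -1.78, the cholesterol list of RARα-KO between -1.53 and -0.95. A minimum of 5 expected UMIs gave 267 genes higher and 244 lower in RARα-KO and 92 and 534 in RARα-TG; 50 expected UMIs gave 33 and 38 in RARα-KO and 35 lower in RARα-TG. With cells weighted equally, the immediate early list was at -0.043 in RARα-KO and -0.014 in RARα-TG. Without 7 cells with leukocyte UMIs, Gzmb in RARα-KO was -0.24, and RARα-TG had 16 genes higher, a hypoxia list of -0.66 and an immediate early list of 0.036. Without 15 cells with T cell, myeloid or stroma UMIs, Gzmb was -0.23, and RARα-TG had 18 genes higher and a hypoxia list of -0.67.

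Leaving out cells with stroma UMIs including Dcn, a gene most of these cells express, left 64 WT, 55 RARα-KO and 5 RARα-TG cells. In RARα-KO, 132 genes were then lower, and the list medians were -0.36 for matrix, 1.15 for interferon, -1.53 for cholesterol synthesis and -1.18 for MHC class II; Cd74 was -1.37, H2-Aa -1.27, Ccl3 2.08, Ccl4 0.67, Il1b 1.57 and Ccn1 0.14. In RARα-TG, 54 genes were lower, and the medians were -1.78 for interferon, -0.97 for MHC class I, -1.23 for cell cycle, 0.23 for hypoxia, 0.51 for immediate early and -1.53 for cholesterol synthesis; Prelp was -0.17, Col1a1 -0.89, Gdf15 -0.72, Col6a2 -0.045, Col6a1 -0.32, Sparc -0.15, Has1 -0.42, Sox9 0.13 and Cenpf -1.08. Without Dcn in that limit, MHC class II in RARα-KO was 0.29. Calls against each hashtag's background gave 293 WT cells, 46 genes lower in RARα-KO, medians in RARα-KO of 1.07 for interferon, 0.71 for MHC class I, -0.28 for hypoxia and 1.21 for MHC class II, Gzmb at -0.76 and Ccn1 at 0.040, and in RARα-TG medians of -0.81 for hypoxia and 0.29 for immediate early and Ccl2 at 0.20.

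Thinning to 2000 UMIs, which leaves fewer genes to compare, gave 15 genes higher and 18 lower in RARα-KO, MHC class II at 0.11 and Rara at 0.58, and in RARα-TG 2 higher, 12 lower, chemokines at -0.41 and immediate early genes at 0.016. The stricter hashtag call left 110 WT and 6 RARα-TG cells; RARα-KO then had medians of 0.58 for interferon, 0.36 for MHC class I and 0.28 for MHC class II, with Cxcl2 at 0.26, Ccl3 at 1.65, Ccl4 at 0.70, Il1b at 1.33 and Col3a1 at 0.16, and RARα-TG had 19 genes higher, medians of 0.51 for chemokines, 0.50 for immediate early genes and -0.83 for cholesterol synthesis, and Has1 at -0.17. Without the deepest 5% of cells, MHC class I in RARα-KO was 0.37 and Hist2h2bb 0.049. Except where the construction shows it (fewer genes or cells), the cause was not tested. For single genes, 1130 values stayed within their band, 332 moved and 28 turned. Those that turned are all given here, while those that only moved are not listed. Another 18 combinations of gene and alternative gave no value. Both counts were at or under 3 UMIs there, or a count of 0 gave no bound. No paired analysis was possible because each host is 1 sample. The 323912 UMIs of RARα-TG limit its comparison to genes of high level, above all in WT, which sets most of the pooled level.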
